A study of Mus musculus with 16 samples.

Results

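The platelet-derived growth factor (PDGF) family was examined in fetal mouse lung through its 4 ligand genes, Pdgfa, Pdgfb, Pdgfc and Pdgfd, and its 2 receptor genes, Pdgfra and Pdgfrb. The genes were taken by symbol, with no measured value in the rule, though the family and the gene lists used below were picked with earlier results of these data known. They are 6 of the 57180 genes in the count tables, and all 6 were among the 17276 genes that passed the filter on low counts. RNA was measured in whole lungs of fetuses at embryonic day E14.5, given as male, of the inbred strains C57BL/6J (B6) and A/J. Pregnant dams of each strain had received either BMS493, which acts as an inverse agonist on every retinoic acid receptor type, by mouth at 3.75 µg per g per day, or corn oil as control. Dosing ran from E9.5 to E14.5, so lungs were collected as exposure ended, and controls were dosed with the oil. Each of the 4 groups, B6 control, B6 BMS493, A/J control and A/J BMS493, had 4 poly(A)-selected libraries. Neither the dam of a fetus nor any pooling of lungs is given in the labels, so p-values measure the spread between these libraries, which may be smaller than that between litters.

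Libraries held 15207539 to 24146224 counts assigned to genes. The 1st principal component of log2 CPM (counts scaled to 1e+06 per library) took 48.9% of the variance and separated the strains, and B6 BMS493 replicate 3 stood apart on the 2nd (7.29%), at -47.8 against -9.07 to 15.6 for the other 15 libraries. Below, "called" means an adjusted p under 0.05 in edgeR's quasi-likelihood test, with the Benjamini-Hochberg adjustment taken over the 17276 genes. Log2 fold changes carry their standard error (SE). With BMS493, the retinoid-responsive genes Cyp26b1, Dhrs3, Rarb and Lrat, 4 of 5 in the list checked, fell in both strains, where 0.347% of all genes in B6 and 0.423% in A/J were called lower, by 3.68 (Cyp26b1, SE 0.28) on the log2 scale in B6 and by 4.24 (SE 0.29) in A/J. The Rarb call in B6 was lost in 6 of 24 alternatives. These were the 8 libraries alone and leaving out any 1 of the B6 controls or B6 BMS493 replicate 2. The other gene, Stra6, was called in B6 (-1.15, lost in 8 of 24) and not in A/J (-0.76, edgeR adjusted p = 0.172). The median log2 fold change over all genes lay between -0.012 and 0.008 in every comparison.

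PDGFs are secreted dimers that signal through a pair of receptor tyrosine kinases. PDGF-A and PDGF-C act mainly on PDGFRα, PDGF-B on both receptors and PDGF-D mainly on PDGFRβ, while PDGF-C and PDGF-D are secreted as latent proteins that proteases must cut before they bind. In the developing lung, PDGF-A comes mainly from the epithelium and acts on PDGFRα-bearing mesenchyme, from which alveolar myofibroblasts arise. Endothelial PDGF-B recruits PDGFRβ-bearing pericytes and vascular smooth muscle. In whole-lung RNA, fewer cells of a type and less RNA per cell cannot be told apart.

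Both receptors were more abundant per length than any ligand, Pdgfrb by a wider margin than Pdgfra. On the RPKM scale (CPM per 1000 bases of exon), mean Pdgfrb levels were 46.4 (B6 control), 43.3 (B6 BMS493), 42.9 (A/J control) and 42.3 (A/J BMS493). Mean Pdgfra RPKM was 22.4, 23.4, 24.7 and 26.1 in the same order of groups. On this scale the receptors did not overlap in any group. Pdgfra had at most 28.7 RPKM in a library and Pdgfrb at least 36.9 RPKM. The gap depended on the length assigned to Pdgfra. By longest transcript instead of all exons, Pdgfra means were 32.8 to 38.3 RPKM and Pdgfrb means 42.7 to 46.8 RPKM. The receptors then overlapped between libraries of both A/J groups, though within each library Pdgfra stayed below Pdgfrb (ratio at most 0.980).

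Pdgfb and Pdgfa came next and overlapped in every group. In B6 controls they ran from 13.7 to 15.5 RPKM (Pdgfb) and from 12.4 to 15.03 RPKM (Pdgfa), above Pdgfc at 7.18 to 7.95 RPKM. In A/J controls the ladder was compressed. Pdgfb ran from 9.22 to 10.6, Pdgfa from 7.98 to 9.66 and Pdgfc from 8.15 to 9.27 RPKM. Pdgfa and Pdgfc overlapped there through replicate 4 alone, with 7.98 RPKM of Pdgfa and 9.27 RPKM of Pdgfc. In A/J lungs with BMS493 they did not overlap, at 9.16 to 10.6 RPKM (Pdgfa) and 6.56 to 7.92 RPKM (Pdgfc). Pdgfd was lowest in every library, at 0.804 to 1.87 RPKM, from 38 to 138 counts per library. By longest transcript the order of the group means was the same, except that Pdgfa lay above Pdgfb in B6 and in A/J with BMS493.

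**Figure D1:**
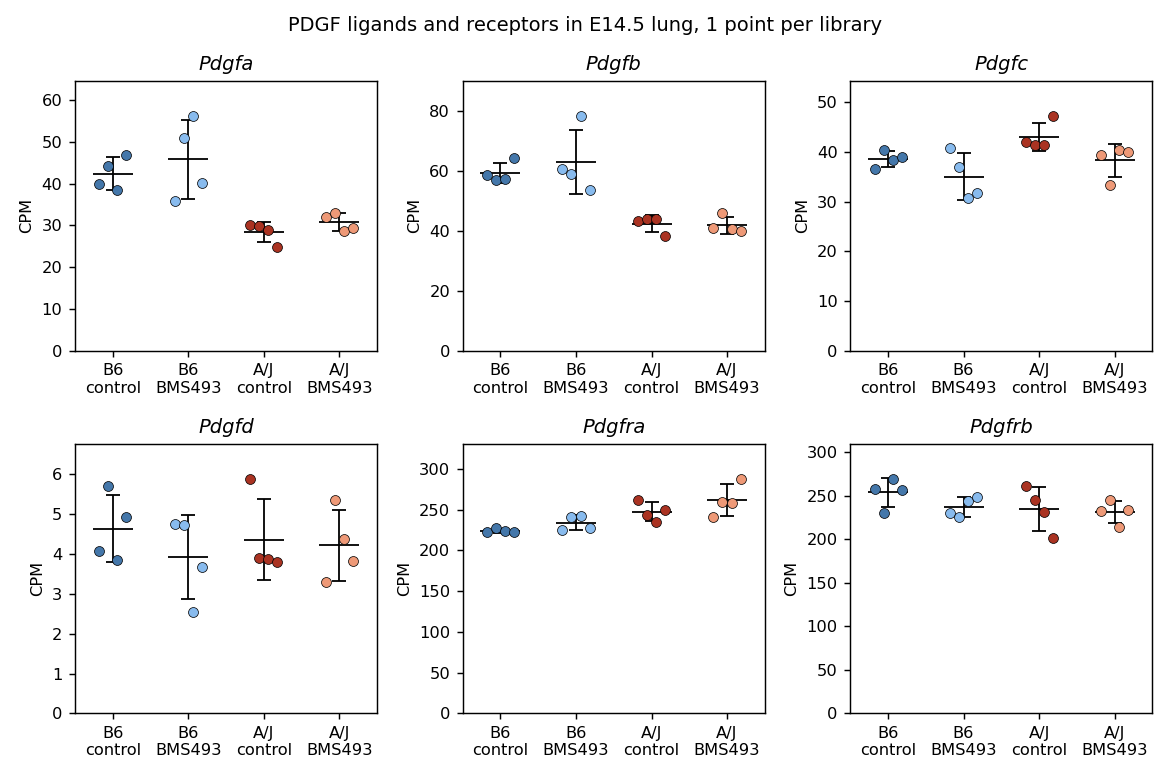
CPM of the 6 PDGF genes in each library (points, left to right replicates 1 to 4), with the group mean (horizontal bar) and SD (error bars, n = 4), on linear axes that start at 0. All 8 A/J libraries lie below all 8 B6 libraries for Pdgfa and Pdgfb, whereas the 4 groups overlap for Pdgfd.

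A/J lungs held less Pdgfa than B6 lungs, with or without BMS493. In B6 controls, replicates 1 to 4 had 39.9, 44.3, 38.5 and 46.9 CPM. In A/J controls they had 30.1, 29.7, 28.8 and 24.9 CPM. Every A/J control was below every B6 control. The group means were 42.4 ± 3.87 and 28.4 ± 2.40 CPM (SD, n = 4), a 1.49-fold lower level in A/J (log2 fold change -0.58, SE 0.11, edgeR adjusted p = 0.000556). Among all genes tested, 16.9% were called between the control strains, and in 24.3% the groups did not overlap (13.6% lower in A/J, 10.7% higher).

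Pdgfa was lower in exposed A/J lungs too. B6 lungs with BMS493 had 35.8, 51.0, 56.1 and 40.3 CPM, the widest spread of the 4 groups. A/J lungs with BMS493 had 32.1, 33.1, 28.6 and 29.4 CPM. The groups again did not overlap, though A/J replicate 2 and B6 replicate 1 were only a few CPM apart. A/J was 1.48-fold lower (log2 fold change -0.57, SE 0.11, edgeR adjusted p = 0.000501) in a comparison in which 20% of all genes were called and 19.5% did not overlap (10.8% lower, 8.74% higher). Without B6 BMS493 replicate 3, the library that stood apart, the difference was -0.47 and stayed called (edgeR adjusted p = 0.0016).

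Exons of Pdgfa overlap a gene on the opposite strand, 6330403L08Rik, in GENCODE M21, and the libraries do not mark strand, so reads of both genes cannot be told apart there. Summing the deposited columns for either strand, in place of the column without strand, gave 15.8% more Pdgfa counts, and 12.7% to 19.7% more in single libraries. The strain calls of Pdgfa held with that sum, at log2 fold changes of -0.56 in controls and -0.52 with BMS493. Pdgfc overlaps Gm16000 in the same way, and the sum gave 10.5% to 18.5% more Pdgfc counts per library. For the other members it gave at most 0.581% more in all, including Pdgfra, which overlaps Gm42802 and Gm42803. Whether A/J sequence variants lowered the mapping of A/J reads to the reference was not tested.

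The Pdgfa promoter is shown because Pdgfa had the largest strain difference in controls among the members with an entry in the RefSeq promoter table, and because its base composition sets it apart from that of Pdgfra. The stretch below is part of the window of 250 bases before 1 of the 2 RefSeq starts, the window with more CG. It ends where a Pdgfa exon of GENCODE M21 begins, and lies on the minus strand, chr5:138995038-138995194 in GRCm38.p6. It is written 5′ to 3′ along the gene, with CG dinucleotides in capitals.
Pdgfa: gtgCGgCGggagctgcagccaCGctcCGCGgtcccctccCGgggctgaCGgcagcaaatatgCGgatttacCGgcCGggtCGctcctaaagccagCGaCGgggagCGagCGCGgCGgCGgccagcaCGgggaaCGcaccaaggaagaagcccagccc
It holds 20 CG in 157 bases, or 12.7 per 100 bases, and 72% G or C. In GENCODE M21 it also overlaps 6330403L08Rik, and 4 Pdgfa exons lie further upstream. The whole windows of 250 bases before the Pdgfa starts had 19 and 28 CG, at the 80.3 and 92.4 percentiles of the 32851 windows in the table. The median window had 6.

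Pdgfb followed the same strain pattern. Values in B6 controls were 58.8, 57.1, 57.6 and 64.3 CPM. In A/J controls they were 43.4, 44.0, 44.1 and 38.4 CPM. The means, 59.5 ± 3.32 and 42.5 ± 2.77 CPM (SD, n = 4), were 1.4-fold apart (log2 fold change -0.48, SE 0.09, edgeR adjusted p = 0.000317), without overlap.

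With BMS493, B6 lungs had 60.8, 58.9, 78.4 and 53.8 CPM of Pdgfb and A/J lungs 41.2, 46.0, 40.7 and 39.9 CPM. The highest value belonged to B6 replicate 3, the library that stood apart. A/J was 1.5-fold lower (log2 fold change -0.58, SE 0.09, edgeR adjusted p = 2.67e-05), and -0.47 without that library, again with no overlap between the groups. Both ligands kept both strain calls in each of the 25 alternatives tried, 1 of them the strain difference averaged over treatments. Library numbers 1 to 8 and 9 to 16 gave log2 differences of -0.41 and -0.56 for Pdgfb in controls and of -0.49 and -0.66 for Pdgfa, 2 libraries against 2 in each.

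Endothelial cells are known to make PDGF-B, and most genes of the endothelial list were called lower in A/J. Of 11 endothelial genes, 9 were called lower in A/J controls and 10 with BMS493, none higher, where 9.84% and 12% of all genes were called lower, with median log2 fold changes of -0.38 and -0.45. The largest called changes in controls were those of Esam (-0.45), the receptor gene Tie1 (-0.42) and Cdh5 (-0.41), and with BMS493 that of Cldn5 (-0.70, a call lost in 2 of 24 alternatives). Pecam1, an adhesion molecule of endothelial cells, had 236 ± 4.42 CPM in B6 and 182 ± 14.6 CPM in A/J controls (SD, n = 4, log2 fold change -0.38). The 11 genes summed to 1294 to 1367 CPM in B6 controls and 879.5 to 1080 CPM in A/J controls, and to 1200 to 1491 and 903.8 to 1071 CPM with BMS493. None of the 11 was at 0 in all libraries of a group. Across alternatives the number called lower ranged from 6 to 11 in controls and from 8 to 11 with BMS493.

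Pdgfb was also set against this list. Per 100 CPM of the endothelial sum there were 4.48 ± 0.263 CPM of Pdgfb in B6 controls and 4.23 ± 0.147 in A/J controls (SD, n = 4). The ranges overlapped, with 3 of 4 B6 controls above every A/J control. With BMS493 the values were 4.80 ± 0.752 and 4.34 ± 0.112, overlapping as well. These ratios were not tested, nor was the part of endothelial abundance in the Pdgfb difference. Platelet and megakaryocyte genes, a blood source of PDGF, were also lower in A/J, 5 of 6 in controls and 4 of 6 with BMS493, against the same shares of all genes, at summed levels of 19.98 to 22.03 and 10.55 to 13.03 CPM in the control strains. Alternatives called 2 to 5 lower in either comparison, and without B6 BMS493 replicate 3 there were 3 lower and 1 higher with BMS493. Erythroid genes summed higher in A/J controls, at 525.4 to 858.8 CPM against 322.4 to 427.3 CPM in B6. So did macrophage genes, at 98.05 to 108.3 against 79.36 to 94.41 CPM. In controls 1 of 6 erythroid genes was called higher and none lower, and 1 of 6 macrophage genes each way. Of all genes, 9.84% were called lower there and 7.04% higher.

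In the epithelial list, most genes did not pass the test. Of 11, 4 were called lower in A/J controls (Epcam, Krt18, Krt8 and Sftpc) and 5 with BMS493, when Cdh1 joined them, where 9.84% and 12% of all genes were called lower. With BMS493 the count was 7 without B6 BMS493 replicate 3 and 4 to 7 over the alternatives, and the Cdh1 call was lost in 5 of 24. The medians were -0.24 and -0.29, and the highest members stood at 0.32 and 0.28. Sftpc, surfactant protein C of distal epithelium, showed the largest difference, from 281 ± 43.9 CPM in B6 controls to 81.1 ± 20.7 CPM in A/J controls (SD, n = 4, log2 fold change -1.79, SE 0.41, edgeR adjusted p = 0.00857). The summed list ran from 1437 to 1593 CPM in B6 controls and from 1007 to 1227 CPM in A/J controls. Per 1000 CPM of that sum, Pdgfa stood at 28.1 ± 2.38 in B6 and 24.9 ± 1.09 in A/J controls and at 25.1 ± 3.98 and 26.1 ± 0.831 with BMS493 (SD, n = 4), each pair overlapping. These ratios were not tested, nor was the part of epithelial abundance in the Pdgfa difference.

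**Figure D2:**
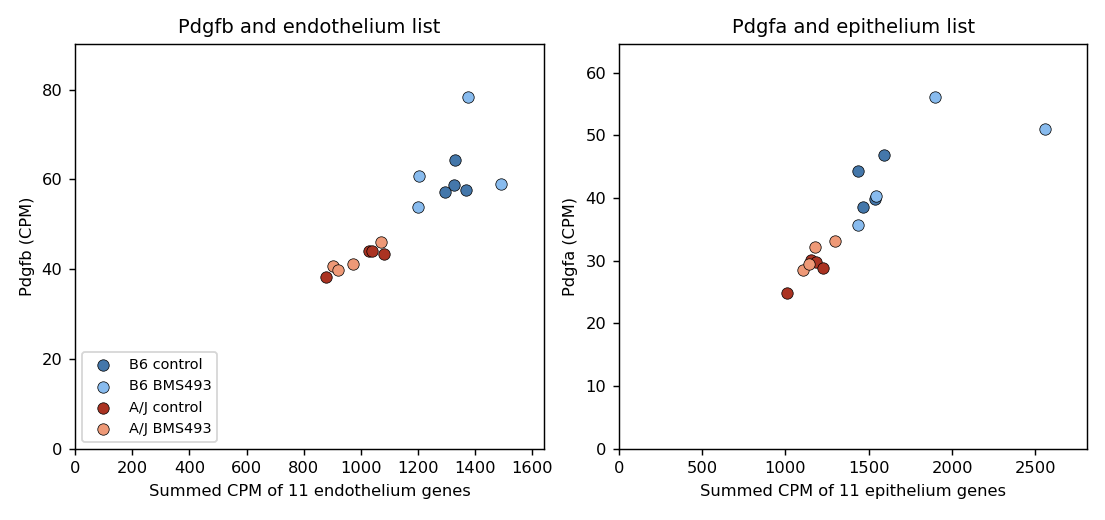
Left, CPM of Pdgfb against the summed CPM of 11 endothelium genes; right, CPM of Pdgfa against the summed CPM of 11 epithelium genes, 1 point per library coloured by group, on linear axes that start at 0. A/J libraries lie at the lower left in both plots, with endothelial sums of 879.5 to 1080 CPM, and B6 BMS493 libraries are the most scattered.

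Pdgfc, whose product is a ligand of PDGFRα, did not share the strain pattern. B6 controls had 36.6, 40.4, 38.4 and 39.0 CPM and A/J controls 42.0, 41.5, 41.5 and 47.2 CPM. The A/J values were all higher, by a small margin that did not pass the test (log2 fold change 0.16, SE 0.09, edgeR adjusted p = 0.239, 95% interval -0.02 to 0.33). With BMS493, B6 lungs had 40.8, 36.9, 30.6 and 31.8 CPM and A/J lungs 39.4, 33.4, 40.3 and 40.04 CPM. These groups overlapped (log2 fold change 0.12, edgeR adjusted p = 0.347). Without B6 BMS493 replicate 3 the log2 fold change was 0.062. The library sets differed in sign, at -0.10 in numbers 1 to 8 and 0.36 in numbers 9 to 16.

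The ligand pool was also described by its makeup. As a share of the summed RPKM of the 4 ligands, Pdgfc made up 20.6% ± 1.01 in B6 controls and 29.1% ± 2.96 in A/J controls, and 18.4% ± 3.58 and 26.2% ± 2.90 with BMS493 (SD, n = 4). In controls the ranges, 19.3% to 21.6% and 27.3% to 33.5%, did not overlap, while with BMS493 they did. The summed ligand level was 36.9 ± 2.20 RPKM in B6 and 29.2 ± 1.07 RPKM in A/J controls, and 38.0 ± 4.55 and 28.8 ± 0.837 RPKM with BMS493. These shares were not tested.

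Pdgfd, a ligand of PDGFRβ, was not called in any comparison. Its group means were 4.64 ± 0.844, 3.92 ± 1.05, 4.36 ± 1.02 and 4.22 ± 0.885 CPM (SD, n = 4) in B6 control, B6 BMS493, A/J control and A/J BMS493, and all groups overlapped. The strain difference in controls was -0.09 with a 95% interval from -0.52 to 0.34. Its biological coefficient of variation, the spread beyond counting error in edgeR, was 18.2%, against a median of 10.6% over tested genes, and counting error alone gave 10.4% to 11.4%.

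Among the receptors, Pdgfra tended to the opposite side. B6 controls were tightly grouped at 223, 228, 223 and 222 CPM. A/J controls had 262, 243, 234 and 249 CPM. They did not overlap, and the means of 224 ± 2.59 and 247 ± 11.7 CPM (SD, n = 4) differed by a log2 fold change of 0.14 (SE 0.06), which missed the threshold (edgeR adjusted p = 0.0893).

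In the exposed lungs Pdgfra was 225, 242, 242 and 227 CPM in B6 and 241, 260, 258 and 288 CPM in A/J. The groups overlapped, since A/J replicate 1 lay just under B6 replicates 2 and 3. Here the difference, 1.12-fold higher in A/J, was just called (log2 fold change 0.16, SE 0.06, edgeR adjusted p = 0.0479). The call was lost in 15 of 25 alternatives, and 1 that kept it was the average over treatments. Leaving out A/J BMS493 replicate 4, the highest library, gave 0.11 (edgeR adjusted p = 0.208). Without B6 BMS493 replicate 3 it held (0.17, edgeR adjusted p = 0.0363). It was also lost without any 1 of the B6 controls, without B6 BMS493 replicate 1, 2 or 4, without A/J BMS493 replicate 2 or 3 and without A/J control replicate 2, with edgeR adjusted p from 0.0559 to 0.112. With the replicate number as a block it was 0.0644, with no filter on low counts 0.0846, with the library set as a covariate 0.0522 and on the 8 libraries alone 0.125. In controls, by contrast, the 8 libraries alone gave a call (edgeR adjusted p = 0.0373), as did the average over treatments (0.15, adjusted p = 0.00506), a comparison added after the data were seen in which 31.7% of all genes were called (17.5% lower, 14.2% higher).

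The RefSeq window of Pdgfra, shown for comparison with the CG-rich Pdgfa stretch, is the 250 bases before its start on the plus strand, chr5:75152001-75152250 in GRCm38.p6, again with CG in capitals.
Pdgfra: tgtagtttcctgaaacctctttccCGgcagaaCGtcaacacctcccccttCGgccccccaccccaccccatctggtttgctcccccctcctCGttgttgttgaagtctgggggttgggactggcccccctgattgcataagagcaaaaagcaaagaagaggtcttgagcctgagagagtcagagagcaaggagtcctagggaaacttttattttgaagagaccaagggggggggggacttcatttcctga
It has 4 CG, or 1.6 per 100 bases, and 54.4% G or C.

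Pdgfrb did not differ beyond the spread between libraries. Values were 259, 231, 270 and 257 CPM in B6 controls and 231, 225, 245 and 249 CPM in exposed B6 lungs. A/J controls had 262, 245, 231 and 202 CPM, and exposed A/J lungs 233, 246, 214 and 234 CPM. All groups overlapped. The strain log2 fold change was -0.11 in controls (95% interval -0.25 to 0.03, edgeR adjusted p = 0.303). With BMS493 it was -0.04 (-0.18 to 0.11, edgeR adjusted p = 0.779). In controls it ran from -0.16 to -0.04 over the alternatives. The library sets gave 0.05 there in numbers 1 to 8 and -0.29 in numbers 9 to 16.

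The ratio of Pdgfra to Pdgfrb, each per length over all exons, was 0.484 ± 0.0384 (B6 control), 0.540 ± 0.0355 (B6 BMS493), 0.580 ± 0.0637 (A/J control) and 0.618 ± 0.0546 (A/J BMS493; SD, n = 4). The lowest A/J control, at 0.542, was just above the highest B6 control, at 0.540. With BMS493 the strains overlapped. The ratio was not tested.

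In all, 2 of 6 members were called between strains in controls, both lower in A/J, where 9.84% of all genes were called lower and 7.04% higher. With BMS493 it was 3 of 6, 2 lower and 1 higher, where 12% were called lower and 7.93% higher. The median log2 fold change of the 6 was -0.10 and 0.03, that of all genes 0.008 and 0.003. Strain accounted for 74.1% of the variance of log2 CPM of Pdgfa over the 16 libraries, 82% for Pdgfb and 53.4% for Pdgfra, against 22% for Pdgfc, 12.9% for Pdgfrb and 0.0516% for Pdgfd.

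BMS493 left no member past the threshold in either strain. In B6, 0 of 6 were called where 0.423% of all genes were, and in A/J 0 of 6 where 0.486% were. No member had an unadjusted p under 0.05 in either strain, and DESeq2 called none. Groups did not overlap in 4.71% of all genes in B6 (2.63% lower, 2.08% higher), and in none of the 6. Called genes were mostly lower, 0.347% against 0.0752% higher in B6 and 0.423% against 0.0637% in A/J. The Pdgfa log2 fold changes were 0.11 in B6 (95% interval -0.11 to 0.33) and 0.11 in A/J (-0.11 to 0.34). Those of Pdgfb were 0.08 (-0.10 to 0.26) and -0.02 (-0.20 to 0.17). For Pdgfra they were 0.06 (-0.05 to 0.18) and 0.08 (-0.04 to 0.20), and for Pdgfrb -0.10 (-0.24 to 0.05) and -0.02 (-0.16 to 0.12). Pdgfd had the largest value in B6, -0.23 (-0.66 to 0.21), and -0.05 in A/J (-0.48 to 0.38). Without B6 BMS493 replicate 3, the B6 values of Pdgfa, Pdgfb and Pdgfd were 0.00059, -0.039 and -0.08.

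**Figure D3:**
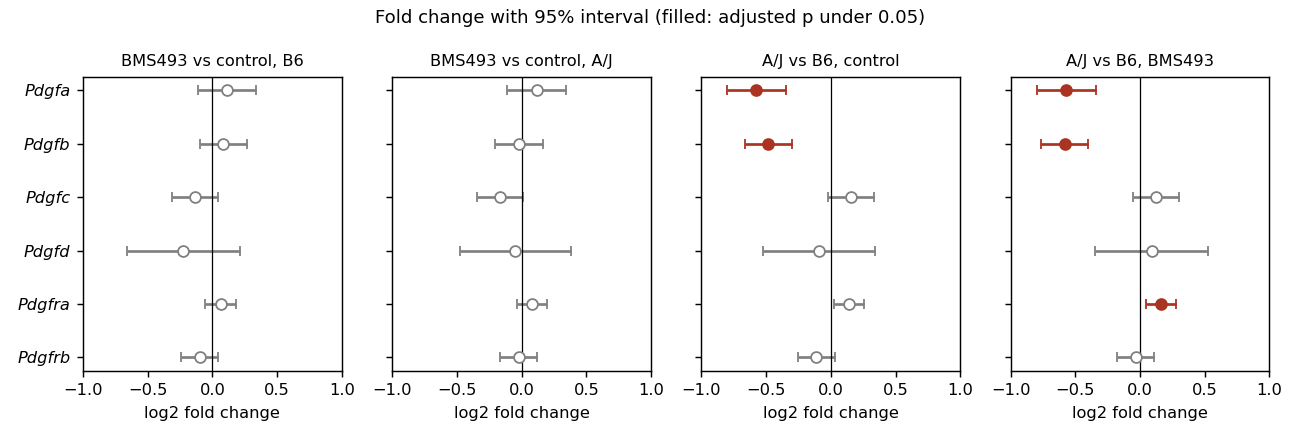
Log2 fold change (point) with its 95% interval (bar) for the 6 PDGF genes in 4 comparisons from the same edgeR fit, filled where the adjusted p was under 0.05. The treatment comparisons hold no filled point, whereas Pdgfa and Pdgfb lie near -0.5 in both strain comparisons.

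Pdgfc came closest to a treatment difference. In A/J it was 41.5 to 47.2 CPM in controls and 33.4 to 40.3 CPM with BMS493, without overlap, as in 4.87% of all genes (2.84% lower, 2.03% higher). The log2 fold change was -0.17 (SE 0.09, unadjusted p = 0.0613, edgeR adjusted p = 0.833). In B6 it was -0.14 (SE 0.09, edgeR adjusted p = 0.679) with overlapping groups, and -0.082 without B6 BMS493 replicate 3. The library sets gave different values in B6, 0.01 in numbers 1 to 8 and -0.31 in numbers 9 to 16. Averaged over strains, the Pdgfc log2 fold change was -0.15 (95% interval -0.28 to -0.03, unadjusted p = 0.0196, edgeR adjusted p = 0.318), which failed the adjustment. No other member had an unadjusted p under 0.05 there. Again 0 of 6 were called in that comparison, against 1.37% of all genes.

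The window before the Pdgfc start is shown because retinoic acid receptors are known to bind repeats of AGGTCA and of the related AGTTCA. It is chr3:81036166-81036415 in GRCm38.p6, plus strand, with the AGTTCA match in capitals.
Pdgfc: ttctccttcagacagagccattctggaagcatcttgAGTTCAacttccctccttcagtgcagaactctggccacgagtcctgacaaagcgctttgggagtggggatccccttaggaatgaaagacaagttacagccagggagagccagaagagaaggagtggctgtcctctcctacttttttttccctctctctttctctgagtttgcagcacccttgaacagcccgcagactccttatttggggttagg
AGTTCA, searched on both strands, occurred once in this window, in none of the other 4 windows of members, and in 11.8% of all 32851 windows of the same length. AGGTCA, searched likewise, occurred in 0 of the 5 member windows and in 14% of all windows. A match describes letters in the window and is not a binding site.

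The effect of BMS493 was also compared between strains. In the test of the difference itself, 0 of 6 were called by edgeR, with 0 at an unadjusted p under 0.05, and 0 by DESeq2, against 0.00579% of all genes. The differences of log2 fold change ran from -0.10 for Pdgfb to 0.18 for Pdgfd. Every member had an edgeR adjusted p of at least 0.999. Without B6 BMS493 replicate 3, the Pdgfb and Pdgfd differences were 0.019 and 0.032.

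Outside the ligands and receptors, 1 of 8 genes of the PDGF-processing list changed with BMS493 in each strain, where 0.423% of all genes in B6 and 0.486% in A/J were called. Plat, tissue plasminogen activator, is a protease known to activate PDGF-C. Control lungs had 36.7, 39.3, 38.5 and 36.5 CPM in B6 and 45.8, 41.2, 48.1 and 40.4 CPM in A/J. With BMS493 they had 31.7, 19.5, 22.7 and 21.8 CPM in B6 and 31.0, 20.3, 27.7 and 29.3 CPM in A/J.

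Plat was lower in every exposed library than in every control of its strain, as were 2.63% of all genes in B6 and 2.84% in A/J. It fell by 0.66 (SE 0.13, edgeR adjusted p = 0.0197) on the log2 scale in B6 and by 0.70 (SE 0.13, edgeR adjusted p = 0.00654) in A/J. The A/J call held in all 24 alternatives, though leaving out a B6 library hardly bears on it. The B6 call was lost in 8 of 24, on the 8 libraries alone (edgeR adjusted p = 0.0606) and without any 1 of the B6 controls or without B6 BMS493 replicate 2, 3 or 4 (0.0512 to 0.0865). The difference between strains was -0.04 (SE 0.18, edgeR adjusted p = 0.999). Plau, urokinase, which is known to cut PDGF-D, was not called with BMS493 in either strain.

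Of the 8 genes that process PDGFs or bind them at the cell surface or in the matrix, Nrp1 and Sparc were lower in A/J, or 2 of 8 where 9.84% of all genes were called lower in controls and 12% with BMS493. Nrp1, a co-receptor of several growth factors, was 132 ± 8.56 CPM in B6 and 97.7 ± 11 CPM in A/J controls (SD, n = 4, log2 fold change -0.44, edgeR adjusted p = 0.00405). Sparc, a matrix protein that binds PDGF-B, differed by -0.41 in controls and -0.38 with BMS493 (edgeR adjusted p = 0.000714 and 0.00138). Both held in all 24 alternatives. Plau was higher in A/J controls (0.39, edgeR adjusted p = 0.0449), a call lost in 11 of 24 alternatives. Furin, Pcsk5, Lrp1 and Pdgfrl were called in neither strain comparison.

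Downstream genes were read against the 16.9% of all genes called in controls and 20% with BMS493. Of 15 signalling proteins that act close to activated PDGF receptors, none was called between control strains, with log2 fold changes from -0.15 to 0.13, and 1 with BMS493, the docking protein Gab1 (-0.27, edgeR adjusted p = 0.0007). Without B6 BMS493 replicate 3 there were 1 in controls and 2 with BMS493. Of 14 early response genes, 3 were called in controls and 2 with BMS493, near those shares. The transcription factor Jun was lower in A/J (-0.25 and -0.42), and Etv4, a target of growth factor signalling, was higher (0.38 and 0.34). Dusp6, a feedback phosphatase of ERK, was called higher in controls (0.24) and not with BMS493 (0.09), and the calls of Jun, Dusp6 and Etv4 in controls were lost in 5, 6 and 2 of 24 alternatives, each time on leaving out 1 library. That of Etv4 with BMS493 was lost in 6 of 24. For the effect of BMS493, none of these 29 genes was called in B6 or in A/J, where 0.423% and 0.486% of all genes were, though 2 early response genes were called lower in A/J without B6 BMS493 replicate 3. Averaged over strains Jun was lower with BMS493 (-0.26, edgeR adjusted p = 0.0152), a call kept in all 23 alternatives.

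The cells that bear the receptors were followed through marker lists. In the pericyte list, 6 of 10 genes were called between control strains, 5 lower and 1 higher in A/J, where 9.84% of all genes were called lower and 7.04% higher, with a median of -0.42. Ndufa4l2 (-1.35), Abcc9 (-0.82) and the potassium channel subunit Kcnj8 (-0.55) were lower, whereas Rgs5, a regulator of G-protein signalling in pericytes, was higher at 67.6 ± 9.12 against 39.1 ± 1.72 CPM (SD, n = 4, log2 fold change 0.79, edgeR adjusted p = 2.8e-06). With BMS493 the count was again 5 lower and 1 higher, where 12% and 7.93% of all genes were, with a median of -0.46, and the lowest was Higd1b (-2.82), at a mean of 0.174 CPM in A/J and 1.24 CPM in B6. Pdgfrb itself was not called, and the summed list overlapped between strains, at 631.9 to 677.7 CPM in B6 and 536.9 to 666.1 CPM in A/J controls.

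Among 15 genes of the mesenchyme around PDGFRα-bearing cells, 4 were called lower in A/J controls: Wnt5a (-0.69), Col1a1 (-0.75), Fgf18 (-0.60) and Tcf21 (-0.35), where 9.84% of all genes were. The calls of Col1a1 and Fgf18 were lost in 8 and 2 of 24 alternatives, those of Wnt5a and Tcf21 in none. With BMS493 5 were lower, where 12% of all genes were, and Gli1, a hedgehog target, was higher (0.39). The calls of Eln (-0.97), Col1a1 and Fgf18 were lost there in 14, 6 and 5 of 24 alternatives, and alternatives called 2 to 6 lower in either comparison. The median was -0.09 and -0.07, on the other side of 0 from Pdgfra. With BMS493 in B6, Foxf1 and Gli1 fell by 0.40 and 0.39 on the log2 scale, calls lost in 4 and 5 of 24 alternatives, and in A/J none of the 15 was called, where 0.423% and 0.486% of all genes were. Averaged over strains Foxf1 was lower (-0.33, edgeR adjusted p = 0.00235), kept in all 23 alternatives. Of 10 smooth muscle genes, Actg2 fell by 0.43 in B6 with BMS493, none was called in A/J, and 3 were lower averaged over strains, namely Actg2 (-0.32), Cnn1 (-0.29) and Acta2 (-0.27). Of all genes, 0.347%, 0.423% and 1.09% were called lower in these comparisons. Alternatives called 1 to 3 lower in B6 (2 without B6 BMS493 replicate 3) and 0 to 1 in A/J. The Cnn1 call was lost in 2 of 23 alternatives, without B6 or without A/J control replicate 2. No mesenchyme or smooth muscle gene was called for a difference of the BMS493 effect between strains. Between strains, 2 of 10 smooth muscle genes were called in controls, Acta2 lower (-0.35) and Actg2 higher (0.35) in A/J, and 5 of 10 with BMS493, 3 lower and 2 higher, where 16.9% and 20% of all genes were called. With BMS493 the calls of Smtn (-0.18) and Synpo2 (0.27) were lost in 8 and 6 of 24 alternatives, and 1 gene was higher without B6 BMS493 replicate 3.

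**Figure D4:**
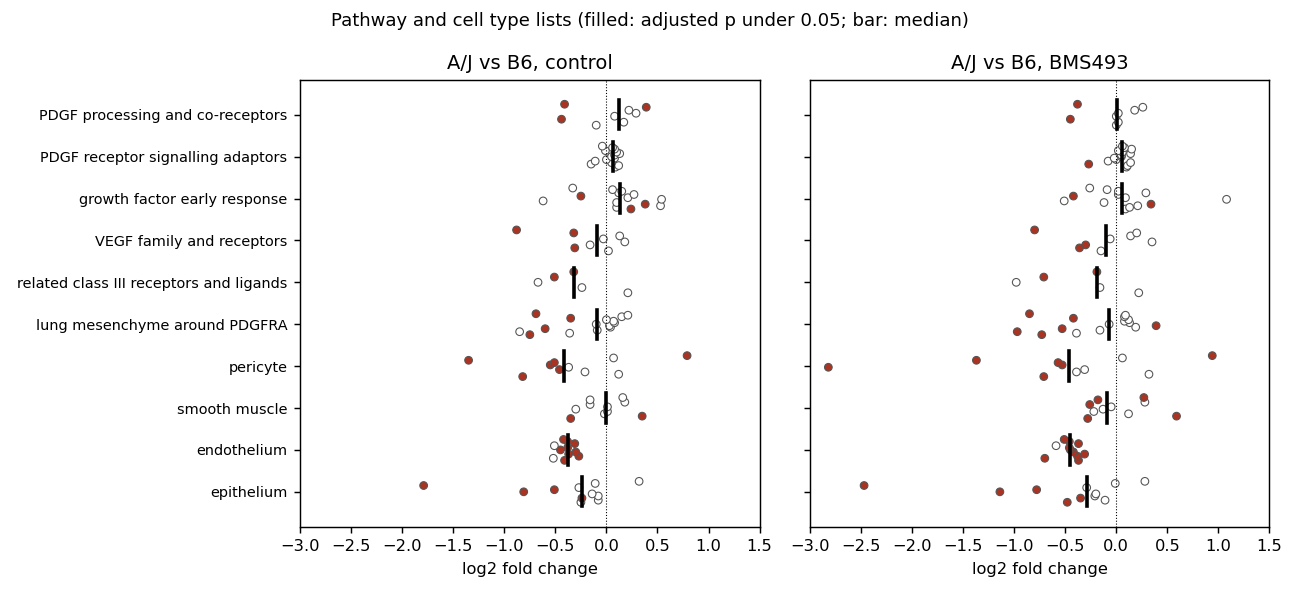
Log2 fold change of A/J against B6 for each tested gene of 10 pathway and cell type lists (points, filled where the edgeR adjusted p was under 0.05) with the list median (bar), in controls (left) and with BMS493 (right). The endothelium points all lie below 0, with medians of -0.38 and -0.45, and the genes on the line named PDGF receptor signalling adaptors lie between -0.27 and 0.15.

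Likeness between genes was described across libraries. Over 16 libraries with group means removed, Pearson's r of log2 CPM was 0.70 between Pdgfa and Pdgfb (Spearman's rho 0.58; r = 0.48 and rho 0.47 without B6 BMS493 replicate 3), -0.53 between Pdgfa and Pdgfc and -0.51 between Pdgfb and Pdgfc (-0.35 and -0.25 without that library). The strongest negative pair was Pdgfc and Pdgfrb, at r = -0.64 and rho -0.75 (-0.66 and -0.74 without it). With the same measure over 13039 protein-coding genes, Pdgfa was most like Lamb2 (0.952), Adamtsl2 (0.951) and Esyt1 (0.916), and Pdgfb most like Gtpbp6 (0.928), Megf6 (0.920) and Smad6 (0.888). Pdgfc was most like Hnrnpk (0.908), Ppp2r3c (0.891) and Ift27 (0.882), and Pdgfd most like Dennd5a (0.855), Foxj2 (0.836) and Tmem184b (0.824). The receptors were most like Tmem178 (0.842), Aass (0.795) and Slc25a13 (0.774) for Pdgfra and Mdga1 (0.932), Adarb1 (0.890) and Smpd3 (0.868) for Pdgfrb. Spearman's rho was lower for some of these, 0.700 for Mdga1 in place of 0.932. These values share libraries and scaling and are descriptions. The genes named are the most alike of 13039, a choice that raises r, and were not sought again without B6 BMS493 replicate 3. Without removing group means, the leading genes were Adamtsl2 for Pdgfa (0.975), Rgcc for Pdgfb (0.965), Ift74 for Pdgfc (0.926), Dennd5a for Pdgfd (0.858), Thbd for Pdgfra (0.847) and Adam19 for Pdgfrb (0.795), values that also carry the strain difference.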

How the data were processed

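RNA from fetal lungs was sequenced in 16 libraries. The authors deposited raw counts per gene for each library; reads were trimmed with cutadapt, checked with FastQC and aligned with STAR to GRCm39, per the submitters' processing notes, and versions and the annotation release are not given in the sources used here. The column without strand was used, since 51% to 52% of stranded counts fell on the 1st strand. Symbols, lengths and strand overlaps came from GENCODE M21 (GRCm38), which matched genes holding 98.9% of the counts; promoters came from RefSeq (GRCm38.p6), with entries for 4 of the 6 members. Counts were analysed in edgeR 4.0.16 (R 4.3.3; filterByExpr, TMM, robust quasi-likelihood test) with 1 coefficient per group over all 16 libraries and 12 residual degrees of freedom, adjusted over 17276 genes. The average over treatments and the correlations without B6 BMS493 replicate 3 were added after the data were seen. The pipeline was tested on simulated data, in 1 comparison and with changes larger than those of the PDGF genes. That test does not show whether changes as small as theirs would be called.

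The members and the gene lists were chosen with earlier results of these data known. The text names all 6 members, in each list called genes of largest change (at most 4 per comparison), and for each member the 3 protein-coding genes of mean CPM of at least 1 with the highest r (log2 CPM, prior count 2). Rarb and Stra6, Gli1 and Smtn between strains, and uncalled genes of the processing list were named after their values were seen. Alternatives were median-ratio scaling, no filter, a CPM minimum of 1 on the mean, DESeq2 1.42.0, the replicate block and the library set. Others were both stranded columns summed, only the 8 libraries compared, and leaving out each library. Leaving out a library of a group outside a comparison moved its log2 fold change little, so such runs test it little. For members in the strain comparisons, the average over treatments was counted too, which made 25.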

Additional observations from a re-analysis of the deposited data

Results flagged for a closer look

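In 8 cases 1 library of a group of 4 lay further from the other 3 than Dixon's test allows at the 95% level, out of 68 groups of 4 checked, and chance gives about 1 in 20. Shares and ratios reuse levels that were also checked, so the checks are not independent of each other. Gaps are given as a share of the group's range.

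A/J control replicate 4 stood apart in 4 of them. Its Pdgfb level was 38.3 CPM against 43.4 to 44.1 in the other A/J controls (gap 0.875), its Pdgfc level 47.2 against 41.5 to 42.0 CPM (gap 0.906), its Pdgfra to Pdgfrb ratio 0.675 against 0.542 to 0.554 (gap 0.91), and its Pdgfc share of ligand RPKM 33.5% against 27.3% to 27.9% (gap 0.907). The same library had the lowest endothelial sum of the 16, at 879.5 CPM. The part of that in its PDGF values was not tested.

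A/J BMS493 replicate 2 was low in Pdgfc, at 33.4 CPM against 39.4 to 40.3 (gap 0.87), and high in the Pdgfb share of ligand RPKM, at 37% against 34.1% to 34.6% (gap 0.838). A/J control replicate 1 was high in Pdgfd, at 5.88 CPM against 3.8 to 3.9 (gap 0.954), and in the Pdgfd share, at 6.17% against 4.19% to 4.35% (gap 0.916).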

How the results depend on the processing

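The number of members called stayed at 0 with BMS493 under every alternative, and was 2 or 3 in both strain comparisons. Pdgfra alone among the members changed sides of the threshold; its values are in the report. Counts over all genes moved more: without a filter 260 genes were called with BMS493 in B6, 178 in A/J, 487 on average and 12 for the difference between strains, and with DESeq2 148, 143, 375 and 2, against 73, 84, 237 and 1. The 8 libraries alone gave 27 in B6 and 133 in A/J with BMS493, and leaving out 1 library 27 to 201 and 52 to 121. The replicate block changed no member's call but that of Pdgfra with BMS493 between strains (log2 fold change 0.16, edgeR adjusted p = 0.0644). Deviations of same-numbered libraries correlated between -0.147 and 0.148, not above 0.1 throughout, so the numbers were not taken to pair the samples, although 7 of 16 libraries correlated best with their own number. Uncalled values near 0 changed sign: the Pdgfa difference between strains was -0.000726 with median-ratio scaling, -0.000944 with a CPM minimum of 1, and -0.10 to 0.11 without 1 library; that of Pdgfc was 0.000594 with both stranded columns and -0.086 to 0.049 without 1 library; Pdgfd between strains with BMS493 was -0.000583 averaged over treatments. Without 1 library, the difference between strains ran from -0.17 to 0.019 (Pdgfb), -0.032 to 0.056 (Pdgfra) and -0.13 to 0.13 (Plat), the BMS493 effect from -0.039 to 0.15 (Pdgfb, B6), -0.068 to 0.00341 (Pdgfb, A/J), -0.029 to 0.065 (Pdgfb, average), -0.19 to 0.13 (Pdgfd, A/J) and -0.089 to 0.035 (Pdgfrb, A/J), and the strain effect from -0.27 to 0.032 (Pdgfd, controls), -0.065 to 0.19 (Pdgfd, BMS493) and -0.063 to 0.000852 (Pdgfrb, BMS493). The cause was not tested. By longest transcript, mean RPKM was 17.9 in place of 11.8 for Pdgfa and 35.4 in place of 24.1 for Pdgfra. Pdgfd had as few as 38 counts in a library.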

Other observations

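Related growth factor genes showed strain differences of their own. Among 8 genes of the vascular endothelial growth factor (VEGF) family and its receptors, 3 were lower in A/J controls and 3 with BMS493, and none higher, where 9.84% and 12% of all genes were called lower. In controls alternatives called 1 to 4 lower, and the call of Vegfc (-0.32) was lost in 7 of 24. Vegfd, a lymphatic growth factor of the same superfamily as the PDGFs, had 66.2 ± 1.95 CPM in B6 and 36.0 ± 2.08 CPM in A/J controls (SD, n = 4, log2 fold change -0.88, SE 0.11, edgeR adjusted p = 1.48e-06), and -0.80 with BMS493. Its receptor gene Flt4 was lower by a log2 fold change of -0.31 in controls, a call lost without B6 control replicate 3 (edgeR adjusted p = 0.0563), and of -0.36 with BMS493. Pdgfra belongs to the class III receptors, and its chromosome 5 neighbour Kit, the receptor of stem cell factor, was lower in A/J, at 90.0 ± 4.14 against 62.9 ± 6.10 CPM in controls (SD, n = 4, log2 fold change -0.51, edgeR adjusted p = 0.00366) and by -0.71 with BMS493, while Pdgfra was not lower in either comparison. Kitl, the ligand of Kit, was lower as well, by -0.32 and -0.19, the latter call lost in 7 of 24 alternatives.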
